A study of Sus scrofa with 9 samples.

Results

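FBXO32, KLF15 and the calpain system are genes of protein breakdown in muscle, and their transcripts were compared in longissimus dorsi of Bama minipigs after long feeding of a high-fat high-sucrose diet. The set was named by symbol: FBXO32, KLF15, the calpains CAPN1, CAPN2 and CAPN3, and the calpain inhibitor CAST. Through the accessions that the array files give, 5 of the 6 genes, of 3194 genes named on the array, matched 10 of 43581 probes. CAPN1 had no matched probe and is not analysed here. All 10 probes were well above background on every array, none was saturated, and all 10 were among the 27922 probes tested.

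The HFHSD animals (n = 6) received a diet of 53% basal feed, 37% sucrose and 10% lard for 23 months, and the CD animals (n = 3) received standard chow over the same time. Both groups were 6 months old at the start, of both sexes and gonadally intact, and were fasted overnight before dissection. Which animals were male or female is not labelled. The growth protocol gives 6 CD animals, but the series design gives 3, and 3 CD arrays are in the series. Each array is 1 animal, hybridised with Cy3-labelled RNA on an Agilent porcine array.

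FBXO32, also called atrogin-1 or MAFbx, is the F-box subunit that gives an SCF ubiquitin ligase its substrates, and it is best known from rodent muscle as a gene switched on during wasting. KLF15 is a zinc finger transcription factor. In rodent muscle it is induced by glucocorticoids, drives enzymes of branched-chain amino acid breakdown and can activate the FBXO32 promoter. Calpains are cytosolic proteases switched on by calcium. CAPN1 and CAPN2 each pair with the small subunit CAPNS1 and are held in check by CAST, whereas CAPN3 is made mainly in skeletal muscle and is anchored to titin in the sarcomere.

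Levels below are the log2 of the scanner software's processed signal minus the 75th percentile of the array. A level of 0 is therefore the signal at that percentile. Differences are HFHSD minus CD, from a limma fit to all tested probes, with Benjamini-Hochberg adjustment and a threshold of 0.05. Probes of a gene are numbered from the brightest to the dimmest, share their transcript and are not replicates. The arrays differed in quality, as 51.2% to 68.9% of probes were well above background on 8 arrays and 36.8% were on CD 1. HFHSD 5 and HFHSD 6 were alone on slide 1, whereas slides 2 and 3 held both diets.

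In HFHSD muscle KLF15 averaged lower than in CD muscle, at 0.450 of its level, and did not overlap with it. CAST averaged higher on all 3 probes, by up to 1.75-fold. FBXO32 averaged 0.664 of its CD level with overlapping groups, and CAPN2 and CAPN3 differed by less. In whole tissue, fewer cells of a type and less RNA per cell cannot be told apart. None of the 10 probes passed the threshold by limma, where 1.23% of all tested probes did, 0.695% higher and 0.537% lower in HFHSD. At an unadjusted limma p of 0.05, 3 of the 10 passed, against 16.5% of all tested probes. The exact permutation test of each probe, which is not adjusted, gave 4 of 10 under the same value, against 16.0% of all tested probes. HFHSD and CD did not overlap for 2 of the 10 probes (10.9% of all tested probes), 1 of them higher in HFHSD (4.8%) and 1 lower (6.11%). In all, 7 of the 10 differences were below 0, as were 52.1% of those of all tested probes, and 3 were above 0 (47.9%). The median difference was -0.15 over the 10 probes and -0.02 over all tested probes. Each of these counts rests on few probes, and several of them share a transcript.

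**Figure D1:**
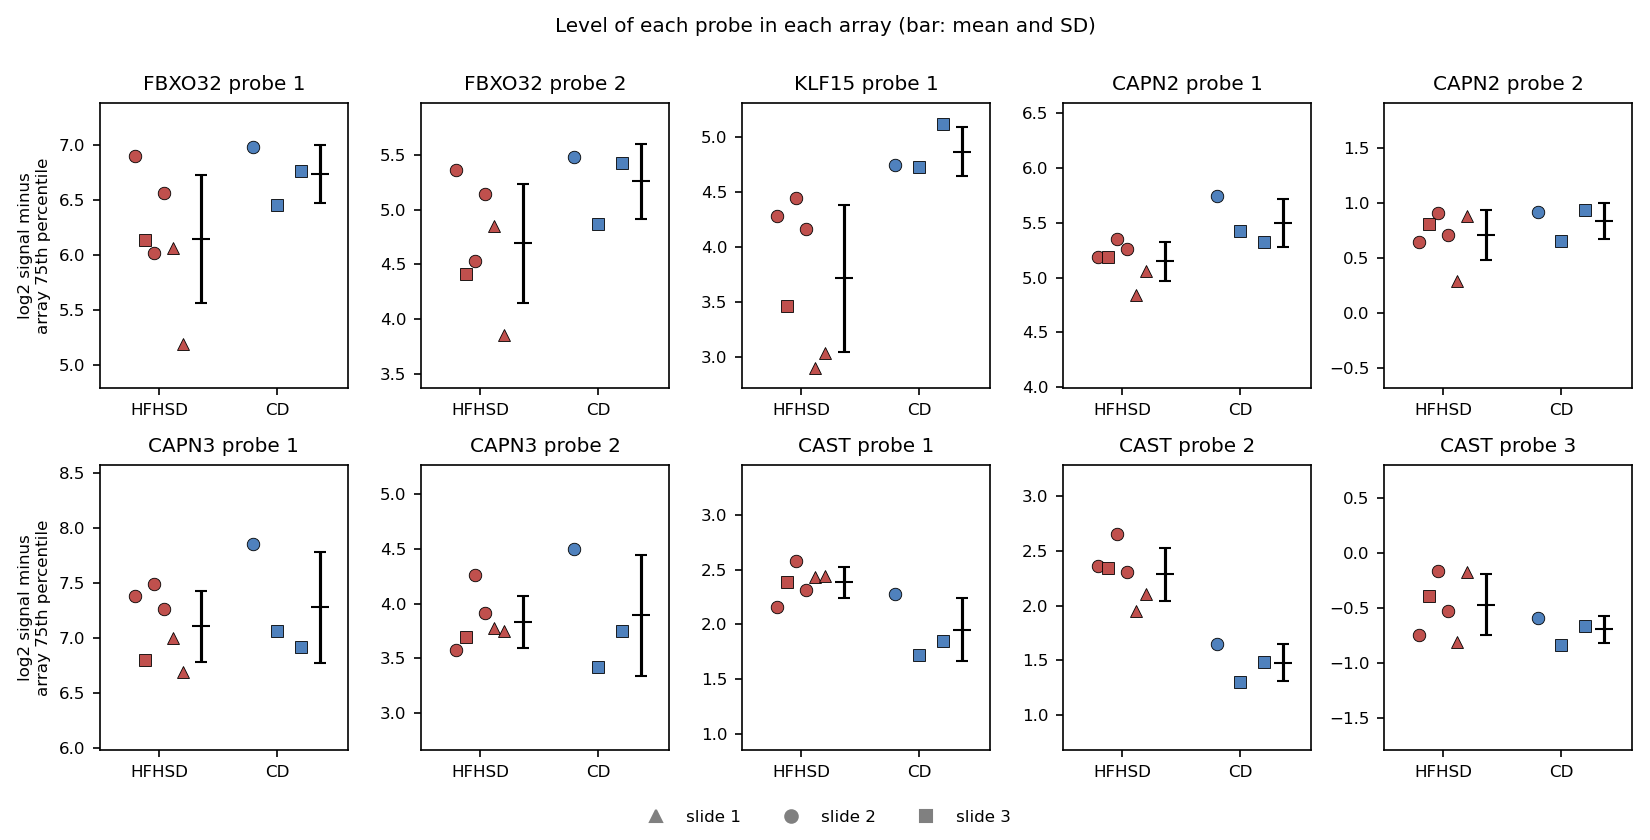
Level of each of the 10 probes in each array, as log2 processed signal minus the 75th percentile of that array, with HFHSD (red, n = 6) left of CD (blue, n = 3), symbols for the 3 slides, and bars for the mean and SD. All panels span the same number of log2 units. KLF15 probe 1 and CAST probe 2 are the 2 panels in which the diets do not overlap, with KLF15 lower and CAST probe 2 higher in HFHSD.

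KLF15 was measured by 1 probe, A_72_P152306. Its level in HFHSD muscle was 2.90 at the lowest, 3.81 at the median and 4.45 at the highest, against 4.74, 4.73 and 5.12 in the 3 CD arrays. All 6 HFHSD animals lay under the lowest CD animal, by a gap of 0.29. The HFHSD animals were spread over a wider range, with a mean of 3.71 ± 0.67 (SD, n = 6), against 4.87 ± 0.22 (SD, n = 3) in CD. The difference was -1.15 (SE 0.37), with a 95% interval from -1.99 to -0.32. It did not pass over all probes (limma, adjusted p = 0.157), and KLF15 ranked 2114 of the 27922 tested probes by p. The exact two-sided permutation test over the 84 splits of the arrays into 6 and 3 gave p = 0.0238, where the smallest it can give is 0.0119.

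The lowest KLF15 levels, 2.90 and 3.04, were in HFHSD 5 and HFHSD 6, both on slide 1, which holds no CD array and has a scan day of its own. On slide 2 KLF15 averaged 4.29 in 3 HFHSD animals, against 4.74 in 1 CD animal, a difference of -0.45. On slide 3 it was 3.46 in 1 HFHSD animal, against a mean of 4.93 in 2 CD animals, a difference of -1.47. Without slide 1 the difference over both remaining slides was -0.78 (adjusted p = 0.178), and a fit that held slide as a fixed block gave -0.93 (adjusted p = 0.131). The difference was negative in each of these settings, and its size depended on the slide, from -0.45 on slide 2 to -1.47 on slide 3.

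FBXO32 was measured by a pair of probes, A_72_P602453 and A_72_P110111. On probe 1, HFHSD muscle had 5.19 at the lowest, 6.10 at the median and 6.90 at the highest, against 6.99, 6.46 and 6.77 in CD. The lowest FBXO32 level of all belonged to HFHSD 6, and 4 of 6 HFHSD animals were below the lowest CD animal. The other 2 stood inside the CD range. The difference on probe 1 was -0.59 (SE 0.34, adjusted p = 0.437), and its 95% interval, -1.35 to 0.16, ran from 0.393-fold to 1.12-fold.

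FBXO32 probe 2 had levels of 3.86 at the lowest, 4.69 at the median and 5.36 at the highest in HFHSD, against 5.48, 4.86 and 5.42 in CD. Again 4 of 6 HFHSD animals lay below the lowest CD animal, and the difference was -0.56 (SE 0.33, adjusted p = 0.448). Both probes followed each other over the 9 arrays (Pearson r 0.96, Spearman rho 0.93, as a description), and the diet difference of probe 1 minus that of probe 2 was -0.028 (exact permutation p = 0.821). Within slides FBXO32 probe 1 differed by -0.49 on slide 2 and by -0.47 on slide 3, and without slide 1 by -0.33 (adjusted p = 0.527).

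CAST, the inhibitor, was the member of the set that averaged higher in HFHSD, and it was measured by 3 probes, A_72_P710618, A_72_P732288 and A_72_P146531. Probe 2 had levels of 1.95 at the lowest, 2.32 at the median and 2.65 at the highest in HFHSD, against 1.65, 1.31 and 1.49 in CD. Every HFHSD animal stood above every CD animal, by a gap of 0.30. The difference of CAST probe 2 was 0.80 (SE 0.20), or 1.75-fold with a 95% interval from 1.29-fold to 2.37-fold. It did not pass (adjusted p = 0.0799) but was the 1 probe of the set under an adjusted p of 0.10, as were 4.34% of all tested probes. Its exact permutation p was 0.0119, the smallest that the 84 splits can give. CAST probe 2 passed in 6 of 21 processing alternatives, with quantile normalisation (0.87, adjusted p = 0.0437) among them, and not when any 1 array was left out.

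CAST probe 1, the brightest, had 2.16 at the lowest, 2.41 at the median and 2.58 at the highest in HFHSD, against 2.28, 1.72 and 1.85 in CD. The groups overlapped through HFHSD 1 and CD 1, and the other 5 HFHSD animals lay above all CD animals. The difference was 0.43 (SE 0.19, adjusted p = 0.285). On slide 2 it was 0.075, and on slide 3 it was 0.59. CAST probe 3, the dimmest, averaged -0.47 ± 0.28 (SD, n = 6) in HFHSD and -0.69 ± 0.12 (SD, n = 3) in CD, with a difference of 0.23 (SE 0.21, adjusted p = 0.664) and overlapping groups.

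Whether the CAST probes differed among themselves in their response was compared by the difference between 2 probes in each array. Over the 6 pairs of probes of a gene in the set, the diet difference of CAST probe 2 exceeded that of CAST probe 3 by 0.58 (exact permutation p = 0.0119, adjusted over the 6 pairs p = 0.0714). The diet difference of CAST probe 1 minus that of probe 2 was -0.37 (exact permutation p = 0.0833). None of the 6 pairs passed after adjustment. A single pair at the smallest p that the 84 splits can give, 0.0119, could not pass, since adjustment over 6 pairs makes it 0.0714. The adjusted value therefore does not decide whether these 2 probes differed. The comparison was added after the values were seen. Within slides CAST probe 2 differed by 0.79 on slide 2 and by 0.94 on slide 3.

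CAPN2, the catalytic subunit of m-calpain, was measured by a pair of probes, A_72_P165706 and A_72_P680499. On probe 1 it had 4.84 at the lowest, 5.19 at the median and 5.35 at the highest in HFHSD, against 5.74, 5.42 and 5.33 in CD. Of the HFHSD animals, 5 lay below the lowest CD animal, and HFHSD 3, at 5.35, lay just above it. The difference was -0.35 (SE 0.18, adjusted p = 0.393; exact permutation p = 0.0476, unadjusted). CAPN2 probe 2 differed by -0.13 (SE 0.19, adjusted p = 0.808) with a 95% interval from -0.56 to 0.30, and its groups overlapped.

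CAPN3, the muscle calpain, was measured by a pair of probes, A_72_P684439 and A_72_P088326. On probe 1 its levels were 6.70 at the lowest, 7.14 at the median and 7.49 at the highest in HFHSD, against 7.86, 7.06 and 6.92 in CD. The highest array was CD 1, and the other 2 CD arrays lay inside the HFHSD range. CAPN3 probe 1 differed by -0.17 (SE 0.27, adjusted p = 0.823), with a 95% interval from 0.583-fold to 1.35-fold, and without CD 1 by 0.12. Probe 2 differed by -0.064 (SE 0.26, adjusted p = 0.939). Neither value shows that CAPN3 was the same in both diets, since the interval spans both directions.

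**Figure D2:**
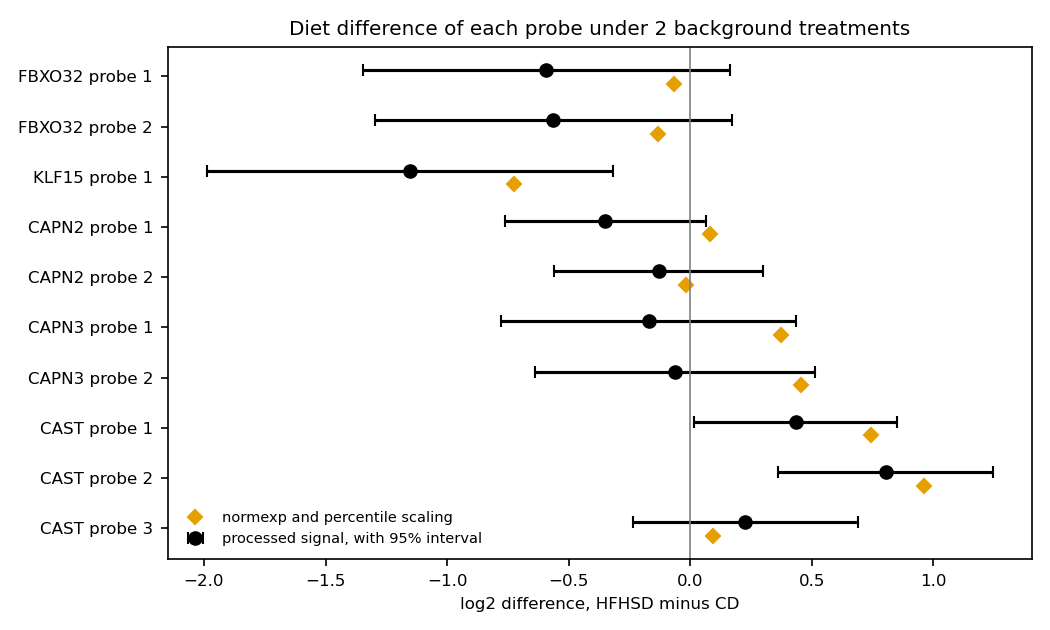
Log2 difference, HFHSD minus CD, for the 10 probes: black points with 95% intervals are from the processed signal, and orange diamonds are from normexp background correction followed by percentile scaling. CAST probes 1 and 2 stayed above 0 and KLF15 below 0 in both treatments, whereas both CAPN3 probes and CAPN2 probe 1 changed sign.

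The background treatment was changed under each of 2 scalings. After normexp background correction and percentile scaling, called normexp correction below, FBXO32 probe 1 differed by -0.07, KLF15 by -0.73, CAPN2 probe 1 by 0.08 and CAPN3 probe 1 by 0.37, while CAST probe 2 differed by 0.96 (adjusted p = 0.119) and CAST probe 1 by 0.74 (adjusted p = 0.299). In that setting the median over all tested probes was -0.17, against -0.02 with the processed signal. Relative to these medians KLF15 was lower by either treatment, at -0.55 with normexp and -1.13 with the processed signal, and CAST probe 2 was higher, at 1.14 and 0.83. FBXO32 probe 1 lay 0.11 above the median with normexp and at -0.57 relative to it with the processed signal. With quantile normalisation the same correction moved the set little. FBXO32 probe 1 differed by -0.41 with normexp and by -0.46 with the processed signal, KLF15 by -1.06 and -1.04, and CAST probe 2 by 0.75 and 0.87. Relative to the median of all probes FBXO32 probe 1 then lay at -0.43 and -0.49, so its direction turned with normexp and percentile scaling alone among these 4 settings.

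Over the 6 HFHSD animals, the brightest probes of the 5 genes were set against each other in 10 pairs. KLF15 and CAPN2 went together most closely among the pairs by their p (Pearson r = 0.87, exact permutation p = 0.00556, 0.0556 after adjustment over the 10 pairs; Spearman rho = 0.83, exact permutation p = 0.0583), with r = 0.61 without the 2 animals farthest from the KLF15 median. KLF15 and CAPN3 had r = 0.88 (exact permutation p = 0.05, 0.25 after adjustment) and rho = 0.83 (exact permutation p = 0.0583), with r = 0.999 without the same 2 animals. Those were HFHSD 5 and HFHSD 6, all of slide 1, so that value rests on 3 HFHSD animals of slide 2 and 1 of slide 3. Each r without 2 animals rests on as few. KLF15 and FBXO32 had r = 0.63 (exact permutation p = 0.185, 0.369 after adjustment) and rho = 0.31 (exact permutation p = 0.564), and r was 0.29 without the 2 animals farthest from the FBXO32 median. FBXO32 and CAST ran opposite in sign (r = -0.69, exact permutation p = 0.108, 0.330 after adjustment; rho = -0.94, exact permutation p = 0.0167), with r = -0.79 without the 2 animals farthest from the FBXO32 median. No pair passed after adjustment. The 2 HFHSD animals of slide 1 had the lowest KLF15 levels and the lowest CAPN2 levels, and the other slides hold too few HFHSD animals for a value of their own.

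As a description over all 9 arrays, the named genes whose brightest probes were most alike to each member among 2612 others were picked by Pearson r. For KLF15 these were NGDN (r 0.98, Spearman rho 0.98), IREB2 (r 0.97, rho 0.97) and SELENOT (r 0.97, rho 0.95), and for FBXO32 they were GPANK1 (r 0.96, rho 0.92), BCL10 (r 0.92, rho 0.97) and VTI1B (r 0.91, rho 0.93). CAPN2 was most like ZXDC (r 0.96), GSK3B (r 0.96) and ACACA (r 0.96), and for CAPN3 they included PTH1R (r 0.95) and ERCC1 (r 0.95). CAST was most like FOXN3 (r 0.96), CACNA2D1 (r 0.95) and FXR1 (r 0.94), and CACNA2D1 had a rho of 0.68. All share the arrays, their slides and their scaling, and each gene named is among the best 3 of all those searched.

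Of the calpain family, 6 of 17 genes were measured and 0 passed by limma, with 1, CAST, under an unadjusted p of 0.05 (18.4% of the 2613 genes tested by their brightest probe; 0.995% of them passed after adjustment). Of these, 4 were lower and 2 higher in HFHSD, and 57.6% of all genes were lower. The median difference was -0.16, which turned to 0.28 after normexp correction and to 0.07 without CD 1, beside a median of -0.08 over all genes. CAPNS1, the shared small subunit, named after its values were seen, had 1.75 to 2.85 in HFHSD and 2.06 to 2.84 in CD and differed by -0.15 (adjusted p = 0.849), or by 0.19 after normexp correction. CAPN10 differed by 0.39 and CAPN7 by -0.43, both also named afterwards, and neither passed (adjusted p = 0.4215 and 0.5615). CAPN7 was well above background on 5 of 6 HFHSD and 2 of 3 CD arrays, and differed by -0.13 with slide as a fixed block.

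Among ubiquitin ligases of muscle and partners of the SCF ligase, 5 of 22 genes were measured, all 5 lower in HFHSD and 1 past the threshold. Of all genes by their brightest probe 57.6% were lower and 0.995% passed. After normexp correction 3 of the 5 were lower and 2 were not, as MDM2 and TRAF6 differed by 0.084 and 0.086. The gene that passed was MUL1, a ligase of the mitochondrial outer membrane. Its levels were -2.24 to -1.29 in HFHSD and 2.40 to 3.36 in CD. It fell by 4.58 on the log2 scale (SE 0.28, adjusted p = 0.00013). FBXO21, another F-box protein, differed by -0.55 (SE 0.31, adjusted p = 0.434), by -0.27 after normexp correction and by -0.17 with slide as a block, and its groups overlapped. The median of the list was -0.55, and it was -0.07 after normexp correction. TRIM63, the other ligase best known from wasting muscle, and the SCF scaffold genes had no matched probe.

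Among genes upstream of FBXO32 and KLF15, 15 of 24 were measured, 6 higher and 9 lower (57.6% of all genes were lower). By limma 0 passed, with 4 under an unadjusted p of 0.05 (18.4% of all genes). The median of the list, -0.15, became 0.042 after normexp correction. HSD11B1, the enzyme that makes active glucocorticoid from its inactive form, had the smallest p. Its levels were 5.14 at the lowest, 5.28 at the median and 5.49 at the highest in HFHSD, against a range of 4.26 to 4.74 in CD. Every HFHSD animal was above every CD animal, and the difference was 0.82 (SE 0.18, adjusted p = 0.0631), or 1.28 after normexp correction. The second smallest p was that of MSTN, the gene of myostatin, which limits muscle growth. Its difference was 1.35 (adjusted p = 0.0759) but 0.37 after normexp correction, and it was well above background on 2 of 3 CD arrays. CEBPB and MTOR, named after their values were seen, were the others under an unadjusted p of 0.05, and both were lower. They differed by -1.03 and -0.48 (limma, adjusted p = 0.153 and 0.261), or by -0.72 and -0.04 after normexp correction.

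Of 16 listed genes of the KLF family 15 were measured, KLF15 among them, and KLF14 was not. Of these 10 were lower and 5 higher (57.6% of all genes were lower). By limma 0 passed, and 2 were under an unadjusted p of 0.05 (18.4% of all genes). The median was -0.08, which turned to 0.03 after normexp correction. KLF5, a factor known from smooth muscle and fat cells, had the smallest p and a difference opposite in sign to that of KLF15. It had -1.42 at the lowest, -1.07 at the median and -0.74 at the highest in HFHSD, against a range of -2.57 to -1.63 in CD, a difference of 1.13 (SE 0.26, adjusted p = 0.0683). After normexp correction KLF5 differed by 0.33.

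Among amino acid and fuel genes tied to KLF15 in mouse, 12 of 23 were measured, 3 higher and 9 lower, with a median of -0.45 (-0.03 after normexp correction, -0.20 without CD 1). By their brightest probes 0 passed by limma and 4 were under an unadjusted p of 0.05 (18.4% of all genes). Over all genes 57.6% were lower. OAT, which breaks down ornithine, differed by 1.24 (SE 0.32, adjusted p = 0.0899) by its brightest probe, and its dimmer probe rose by 1.09 (SE 0.21, adjusted p = 0.04165). ACADM, the medium-chain acyl-CoA dehydrogenase of fat oxidation, had 5.61 to 5.97 in HFHSD and 4.88 to 5.32 in CD, a difference of 0.67 (SE 0.18, adjusted p = 0.0928), or 1.21 after normexp correction. GOT1 and PDK4, named after their values were seen, were the others under an unadjusted p of 0.05, and both were lower. They differed by -1.41 and -0.79 (limma, adjusted p = 0.208 and 0.295), with overlapping groups. Both were also lower after normexp correction. BCKDHA and BCKDHB, the subunits of branched-chain ketoacid dehydrogenase, named after their values were seen, differed by -0.093 and -0.025, or by 0.32 and 0.26 after normexp correction.

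Among targets of the FBXO32 ligase and of calpain cleavage, 8 of 18 genes were measured. Of these 6 were lower and 2 higher (57.6% of all genes were lower). By limma 0 passed, with 3 under an unadjusted p of 0.05 (18.4% of all genes). The median of -0.18 turned to 0.36 after normexp correction. MYOD1, a regulator of the myogenic programme and a target of FBXO32 in mouse, differed by -1.93 (SE 0.49, adjusted p = 0.0863), by -0.82 after normexp correction and by -0.44 after normexp and quantile normalisation. It was well above background on 3 of 6 HFHSD and 2 of 3 CD arrays. TNNT3, the fast troponin T, differed by -1.04 (SE 0.29, adjusted p = 0.108), or by -0.59 after normexp correction. DMD, named after its values were seen, was the other gene under an unadjusted p of 0.05 and was higher in HFHSD. It differed by 0.50 (SE 0.20, limma adjusted p = 0.247), or by 0.78 after normexp correction. Of the autophagy genes, 3 of 16 were measured and 0 passed by limma, with 0 under an unadjusted p of 0.05 (18.4% of all genes). The lysosomal proteases CTSD and CTSB differed by -0.50 (adjusted p = 0.337) and -0.35 (adjusted p = 0.538), and after normexp correction by -0.011 and 0.17.

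**Figure D3:**
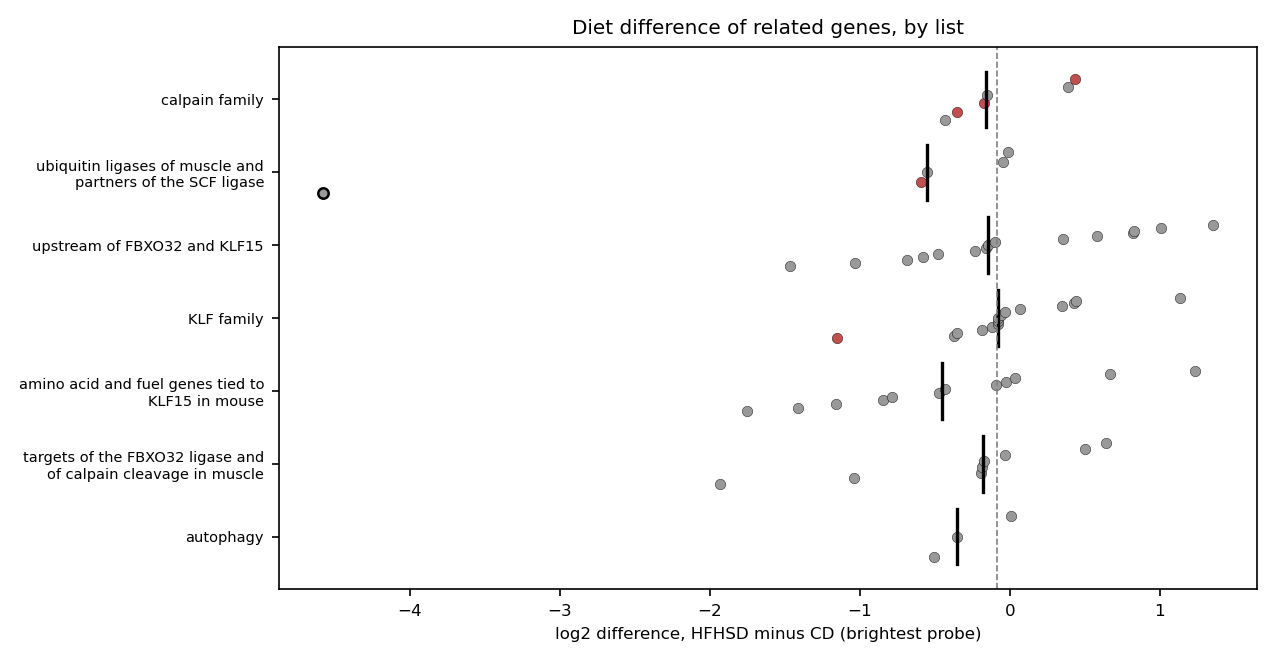
Log2 difference, HFHSD minus CD, of the brightest probe of each measured gene in the 7 lists: FBXO32, KLF15, CAPN2, CAPN3 and CAST in red, other genes in grey, a thick outline where the gene passed, a vertical bar for the list's median and a dashed line for the median over all genes (-0.08). MUL1, at -4.58, is the single gene with a thick outline, and KLF15 and KLF5 lie at opposite ends of the KLF family.

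The tissue label was checked against its markers. Of 14 skeletal muscle markers 12 were measured, all above background on every array, with a summed level of 10350 to 13040 times the 75th percentile in HFHSD and of 12280 to 16270 in CD. The 7 measured of 9 adipocyte markers summed to 111 to 369.2 in HFHSD and to 85.8 to 115.1 in CD, and 4 of the 7 were above background on every array. Most of the adipocyte sum was LIPE (log2 level 5.71 to 7.91 in HFHSD) and FABP4 (5.23 to 6.92 in HFHSD). They differed by 1.197 and 0.32, and neither passed (limma, adjusted p = 0.2899 and 0.737). No other adipocyte marker exceeded 2.58, the highest level of ADIPOQ. Among the adipocyte markers CIDEA alone passed, with a difference of 1.49 (limma, adjusted p = 0.0378), and it added little to the sum. The 7 measured of 11 macrophage and leukocyte markers summed to 11 to 29.2 in HFHSD and to 18.3 to 29.9 in CD. Sums of endothelial markers (4 of 8 measured) were 21.7 to 37.7 in HFHSD and 27.9 to 30.2 in CD, and those of fibroblast markers (5 of 8) 78.1 to 128.0 and 64.9 to 133.2. Smooth muscle markers (3 of 5) summed to 525.3 to 793.8 in HFHSD and 782.2 to 1214 in CD. Nearly all of that sum was ACTA2 (log2 level 8.93 to 9.61 in HFHSD, 9.54 to 10.23 in CD). Of 4 genes listed as blood markers 1 was measured, ALB, at 0.396 to 1.65 in HFHSD and 0.0751 to 0.753 in CD. ALB codes for a plasma protein and does not mark blood cells. As HBB, HBA1 and ALAS2 were not measured, blood content was not assessed. No list had a measured marker that was below background on every array. The adipocyte sum was above every CD array in 5 of 6 HFHSD arrays, with a median of 157.7 in HFHSD and 91.0 in CD, beside CAST, which averaged higher. The medians of the muscle sum were 12440 in HFHSD and 13200 in CD, beside KLF15 and FBXO32, which averaged lower. Their part in these differences was not tested.

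CD 1, the dimmest array, had the highest CAPN2 probe 1, CAPN3 and FBXO32 levels of all arrays, and the highest CAST level of the 3 CD arrays on each of the 3 probes. Without CD 1, KLF15 differed by -1.21 (adjusted p = 0.290) and FBXO32 by -0.47 (adjusted p = 0.706). In the same setting CAPN2 differed by -0.23 (adjusted p = 0.718), CAST probe 1 by 0.60 (adjusted p = 0.227) and CAST probe 2 by 0.89 (adjusted p = 0.1495).

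**Figure D4:**
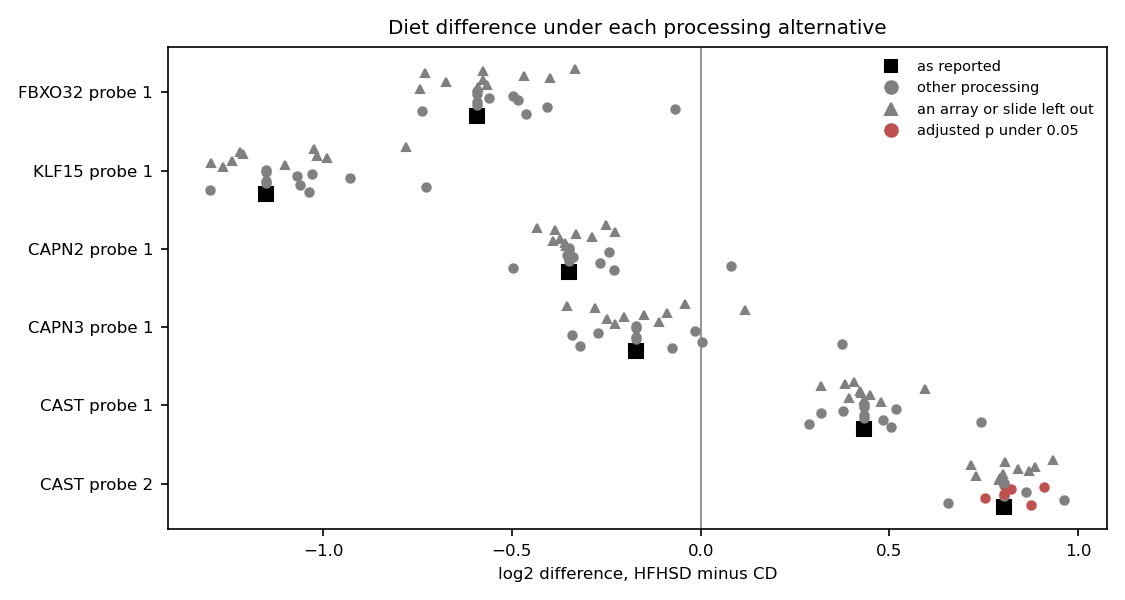
Log2 difference, HFHSD minus CD, of the brightest probe of each gene and of CAST probe 2 under each processing alternative: black squares as reported, grey circles other processing, grey triangles an array or slide left out, and red points adjusted p under 0.05. CAST probe 2 is the single probe shown with red points, 6 in number, and CAPN3 probe 1 lies on both sides of 0.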

How the data were processed

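Each array file was read per sample. The values are spot intensities: per the file headers, the deposited intensity columns come from Agilent Feature Extraction 10.7.3.1, and its processed signal is background-treated by that software. The authors' deposited value table holds the same intensities, with 0 values differing on any of the 9 arrays. Computed here were the log2 of the deposited processed signal minus the 75th percentile of the array. Control spots and outlier spots were left out, spots of a probe were averaged, and 22 of 43603 probes were dropped because every spot was an outlier on some array. Probes well above background on at least 3 arrays were tested with limma 3.58.1 in R 4.3.3 (Benjamini-Hochberg, 0.05). The fit was also run on simulated data. These had no slide differences, no dim array and changes larger than any in the set, so they cannot show how the fit handles those here. The number of arrays limits the precision.

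Accessions were named through the pig RefSeq gene table (assembly Sscrofa11.1, names only), giving 6884 named probes of 3194 genes, 17 of them through an older annotation only, while 2 were left unnamed because annotations differ. The build the authors used is not given in the sources used here, so no coordinates are printed, and no sequences were used.

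A related gene was taken by its brightest probe. Named were all members, each list's genes that passed and its 2 with the smallest p, and the 3 genes most like each member, of which 1 is not reported here. The members and lists were chosen with earlier results of these data known. The sample titles are numbers, none shared between diets, so replicate numbers here follow the order of the samples and pair nothing. Alternatives were other scalings, normexp (offset 50, on the median spot signal, since the mean signal is not among the columns), filters, slide as a block, array weights, another variance prior and leaving out each array. Leaving out slide 1 and the differences between probes of a gene were added after seeing the data.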

Additional observations from a re-analysis of the deposited data

How the results depend on the processing

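FBXO32 kept its direction in 25 of 25 alternatives, between -0.74 and -0.068, and passed in none of those that held a test. KLF15 kept its direction in all 25, between -1.47 and -0.45, and its adjusted p was never under 0.0915. Not all 25 could change the direction. The filters, the deposited value table, the other variance prior and the permutation test leave the difference of a probe as it was. The differences within a slide carry no test. Leaving out 1 array gave -1.30 to -0.99 for KLF15, -0.43 to -0.23 for CAPN2 and 0.32 to 0.60 for CAST. With normexp and percentile scaling CAPN2 turned to 0.079, CAPN3 to 0.37, CAPN3 probe 2 to 0.46 and CTSB to 0.17. With normexp and quantile normalisation CAPN3 was 0.0038 and CAPN3 probe 2 was 0.13. CAPN3 probe 2 was also 0.051 with quantile normalisation and 0.11 with array weights. Leaving out 1 array gave -0.35 to 0.12 for CAPN3 and -0.30 to 0.24 for its probe 2, above 0 without CD 1 alone. The exact permutation p, unadjusted, was under 0.05 for KLF15 (-1.15), CAPN2 (-0.35) and CAST (0.43). Within slide 2, KLF15 differed by -0.45 and CAST by 0.075. The cause of these shifts was not tested.

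CAST probe 2 passed in 6 of 21 alternatives: quantile normalisation (0.87, adjusted p = 0.0437), normexp with it (0.75, adjusted p = 0.00987), probes above background on all arrays (0.80, adjusted p = 0.0386), slide as a random block (0.82, adjusted p = 0.0449), array weights (0.91, adjusted p = 0.0235) and a trended robust prior (0.80, adjusted p = 0.0493). Its adjusted p ranged up to 0.318. In these 6 settings 1 of the 10 probes passed, beside the counts over all tested probes given below. At an adjusted p of 0.10 it was also 1 (4.34% of all tested probes), and 3 at an unadjusted p of 0.05 (16.5%). Without any 1 array the number was 0. Among the related genes HSD11B1 passed in 5 of 21 alternatives, KLF5 in 4, ACADM in 3, OAT in 2 and MYOD1 in 1 of 20, and MUL1 passed in all 21.

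Of the 27922 tested probes 344 passed. The number was 387 with quantile normalisation, 127 with median scaling, 88 with normexp and percentile scaling and 856 with normexp and quantile normalisation. With other filters it was 66 of 43581 with no filter and 736 of 15847 above background on all arrays. The number was 84 with slide as a fixed block, 677 as a random block, 1205 with array weights, 612 with the trended prior and 57 without slide 1. It was 1211 at an adjusted p of 0.10 and 4599 at an unadjusted p of 0.05. Leaving out 1 array gave 25 to 325, with 32 without CD 1, 87 without CD 2, 25 without CD 3, 99 without HFHSD 2, 75 without HFHSD 3, 161 without HFHSD 5 and 93 without HFHSD 6. No paired analysis was possible because the labels give no number that both diets share. With 3 CD arrays, 1 of them the dimmest, most of these differences have intervals that include 0. Slide 1 holds HFHSD alone, so a slide difference there and diet cannot be told apart.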
